A study of Mus musculus with 5 samples.

Results

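The genes that encode pre-mRNA splicing factors and heterogeneous nuclear ribonucleoproteins (hnRNP proteins) were taken from the deposited feature list by name. Symbols beginning with Srsf and a number, Hnrnp, Sf3a or Sf3b and a number, Snrp and a further character, U2af or Prpf and a number were kept, and pseudogene names and the imprinted gene Snrpn were left out. This gave 67 of 32285 genes in 6 families: 11 Srsf, 20 Hnrnp, 11 Snrp, 9 Sf3, 3 U2af and 13 Prpf genes. The members were followed in mouse embryonic stem cells of the line REX-1 RFP, which carry a red fluorescent protein under the Rex1 (Zfp42) promoter, after 72 h in each of 5 conditions. The library named ND was grown without leukaemia inhibitory factor (LIF), the cytokine that holds these cells in self-renewal. The library named NS was grown with LIF, and the remaining libraries with LIF plus the osmolyte sorbitol at 200, 250 or 300 mM. The labels do not say what NS and ND stand for, and they give 1 line and 1 library per condition, so no difference has a replicate check and no p-value is given.

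Splicing removes introns through the spliceosome, which is assembled on each intron from small nuclear ribonucleoproteins (snRNPs). SR proteins, encoded by the Srsf genes, mostly bind exon sequences and recruit the machinery, whereas many hnRNP proteins bind the same transcripts and repress nearby splice sites, so that the balance between these families is known to set the choice of alternative exons. The U2af and Sf3 proteins define the 3' end and the branch site of the intron. The Sm proteins encoded by most Snrp genes form the ring of the spliceosomal snRNPs other than U6, and many Prpf proteins act in the larger assembled particles. SR proteins are known to control the splicing of their own transcripts through exons that send the message to decay.

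The promoters of 5 members are shown because these genes stand for the patterns in the counts: Srsf6 was the SR protein gene with the greatest ratio to NS at 300 mM, Srsf5 lay below NS at every dose, Snrpg is a Sm ring gene below NS at every dose, Sf3a1 belongs to the family in which one promoter motif was most frequent, and U2af1 had the lowest ratio to NS at 300 mM. Each runs from 250 bases before the RefSeq transcription start to 50 bases after it, 5' to 3' on the strand of the gene, in build GRCm38.p6. The windows are chr2:162931258-162931557, plus strand, for Srsf6, chr12:80945249-80945548, plus strand, for Srsf5, chr6:86371290-86371589, plus strand, for Snrpg, chr11:4160104-4160403, plus strand, for Sf3a1, and chr17:31658715-31659014, minus strand, for U2af1. Capitals mark matches, on either strand, to the 5 motifs that were searched: CCGGAAG (the core of ETS factor sites), ATGGCGG (YY1), GCATGCG (NRF1), CACGTG (E-box) and TGACGTC (the cyclic AMP response element).

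Srsf6: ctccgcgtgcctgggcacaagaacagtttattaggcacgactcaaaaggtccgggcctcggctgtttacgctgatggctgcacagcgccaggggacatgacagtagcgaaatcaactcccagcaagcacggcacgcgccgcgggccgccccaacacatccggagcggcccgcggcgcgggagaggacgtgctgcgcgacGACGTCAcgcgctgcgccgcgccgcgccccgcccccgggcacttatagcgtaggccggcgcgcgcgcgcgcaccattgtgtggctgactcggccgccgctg
Srsf5: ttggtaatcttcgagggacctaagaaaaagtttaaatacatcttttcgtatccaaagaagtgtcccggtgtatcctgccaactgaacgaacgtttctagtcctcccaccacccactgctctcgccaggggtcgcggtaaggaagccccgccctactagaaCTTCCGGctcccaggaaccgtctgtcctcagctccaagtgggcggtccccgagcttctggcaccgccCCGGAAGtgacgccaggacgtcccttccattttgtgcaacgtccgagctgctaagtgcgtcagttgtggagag
Snrpg: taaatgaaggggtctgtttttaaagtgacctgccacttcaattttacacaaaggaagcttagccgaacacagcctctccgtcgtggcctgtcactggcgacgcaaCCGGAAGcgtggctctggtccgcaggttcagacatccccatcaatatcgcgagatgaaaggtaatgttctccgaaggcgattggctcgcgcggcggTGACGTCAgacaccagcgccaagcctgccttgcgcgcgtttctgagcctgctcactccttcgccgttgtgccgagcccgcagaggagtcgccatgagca
Sf3a1: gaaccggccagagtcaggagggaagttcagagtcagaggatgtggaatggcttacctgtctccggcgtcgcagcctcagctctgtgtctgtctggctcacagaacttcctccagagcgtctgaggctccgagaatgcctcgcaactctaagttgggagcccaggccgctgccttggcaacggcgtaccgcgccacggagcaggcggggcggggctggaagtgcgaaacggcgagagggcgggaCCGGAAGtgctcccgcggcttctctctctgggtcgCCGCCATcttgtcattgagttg
U2af1: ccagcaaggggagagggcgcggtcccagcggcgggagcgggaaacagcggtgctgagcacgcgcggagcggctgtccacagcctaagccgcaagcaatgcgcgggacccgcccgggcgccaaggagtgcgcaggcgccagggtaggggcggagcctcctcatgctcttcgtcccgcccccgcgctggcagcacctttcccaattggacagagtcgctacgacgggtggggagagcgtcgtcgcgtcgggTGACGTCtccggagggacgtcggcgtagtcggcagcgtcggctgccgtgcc

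The promoter table held 58 of the 67 members. The ETS core was present in the promoters of 20 of these 58 genes (34.5%), against 22.6% of the 8164 genes with a promoter that reached the same mean level and 9.93% of all 27025 genes in the table. It was found in 6 of 7 Sf3 genes, all but Sf3b1, and in 4 of 9 Snrp, 4 of 11 Srsf, 4 of 11 Prpf and 2 of 18 Hnrnp genes. The YY1 core was present in 12 of the 58 (20.7%), against 10.5% of the genes at that level. The other motifs were found at shares close to those of the genes at that level: the E-box in 15.5% against 12.4%, NRF1 in 8.62% against 8.27% and the cyclic AMP response element, which reads almost the same on both strands, in 8.62% against 6.82%. A match of letters is a description of the sequence, and binding was not measured. The promoters were chosen for print after the values were seen. The members had 76 promoters in the table. In 33 of these the bases after the start matched the 5' end of an annotated transcript of the gene. In 58 of the 76 the first 20 bases after the start lay within such a transcript. The starts used for Snrpg and U2af1 lie inside the gene positions given below, so bases printed before these 2 starts lie partly within the gene.

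Each library held 10000 barcodes, of which 9240 to 10000 were kept, and the kept barcodes summed to 22158653 unique molecular identifiers (UMIs) in NS and to 7906116 to 9766705 in the others. The median kept barcode held 2135 UMIs in NS and 801 to 939 in the others. Levels are the UMIs of a gene per 1000000 UMIs (CPM) over the kept barcodes of a library, and every interval is a 95% interval for counting error alone. The 8 embryonic stem cell markers were each at 5 CPM or more in every library and summed to 5584 CPM in ND, 6777 in NS, and 8028, 8766 and 7988 at 200, 250 and 300 mM. Dppa5a held most of this sum, with 4855 CPM in NS and 5397 CPM at 300 mM. Pou5f1 (248 CPM in NS, 170 CPM at 300 mM) and Utf1 (120 and 90.6 CPM) were lower at 300 mM. The other genes of the list were higher there than in NS. Summed markers of fibroblasts, which could come from feeder cells, stayed between 7.37 and 18.2 CPM with Col3a1 and Postn at 0 UMIs in all 5 libraries. Summed mesoderm markers were 18.7 CPM in ND, 13.4 in NS, and 24.2, 30.5 and 38.5 at the 3 doses, and primitive endoderm markers were 13.8 CPM in ND, 16.6 in NS, and 21.9, 26.3 and 32.7 at 200, 250 and 300 mM sorbitol. Eomes held most of the mesoderm sum, with 11.3 CPM in NS and 36.5 CPM at 300 mM. T, Mixl1 and Mesp1 stayed below 1 CPM in every library, and Kdr reached at most 1.84 CPM. Over the 5 libraries the summed trophoblast markers lay between 109 CPM in NS and 188 CPM at 300 mM, and the neuroectoderm markers between 78.7 CPM in ND and 44.8 CPM at 250 mM. Tfap2c (47.3 CPM in NS, 103 at 300 mM) and Hand1 (29.4 and 60.2) held most of the trophoblast sum. Gata3, Krt7 and Plet1 were lower at 300 mM than in NS, and Cdx2, Elf5 and Ascl2 slightly higher. Of the primitive endoderm markers, Gata6 (5.01 CPM in NS, 11.8 at 300 mM) and Amn (1.90 and 6.63) rose most. Gata4 and Cubn were lower at 300 mM, and the rest were higher but below 5 CPM. Ribosomal protein genes took 25.4% of UMIs in ND, 28.4% in NS, and 25.3%, 22.5% and 21.3% at the 3 doses, and mitochondrially encoded genes 4.98% in ND, 3.98% in NS, and 5.61%, 5.78% and 6.13%. Pairs of libraries shared 34 to 54 barcode sequences. The part of depth, of ribosomal share and of other cells in the values that follow was not tested beyond the alternatives stated with them.

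The 67 genes together took 1.54% of UMIs in ND, 1.36% in NS, and 1.26%, 1.30% and 1.41% at 200, 250 and 300 mM sorbitol. The families did not move together. The Hnrnp genes, whose products coat nascent transcripts, summed to 6021 CPM in ND, 4681 in NS, and 5194, 5254 and 5985 at 200, 250 and 300 mM sorbitol. NS was the lowest of the 5 libraries by CPM, but under the median-of-ratios scaling described with the sorbitol comparison the sums at 200 and 250 mM lay below that of NS. The Snrp genes summed to 4302 CPM in ND, 4421 in NS, and 3501, 3278 and 3398 at 200, 250 and 300 mM sorbitol, with every sorbitol library below both ND and NS. The Srsf genes summed to 1944 CPM in ND, 1633 in NS, and 1301, 1468 and 1756 at 200, 250 and 300 mM sorbitol; their lowest value was at 200 mM and the sum was greater at each higher dose. The Sf3 genes stayed within a narrow range, with 1318 CPM in ND, 1217 in NS, and 1181, 1263 and 1308 at 200, 250 and 300 mM sorbitol. The Prpf genes had 1367 CPM in ND, 1297 in NS, and 1136, 1391 and 1335 at 200, 250 and 300 mM sorbitol. The 3 U2af genes had 418 CPM in ND, 390.3 in NS, and 306, 355 and 319 at 200, 250 and 300 mM sorbitol, and all 3 sorbitol libraries lay below ND and NS.

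**Figure D1:**
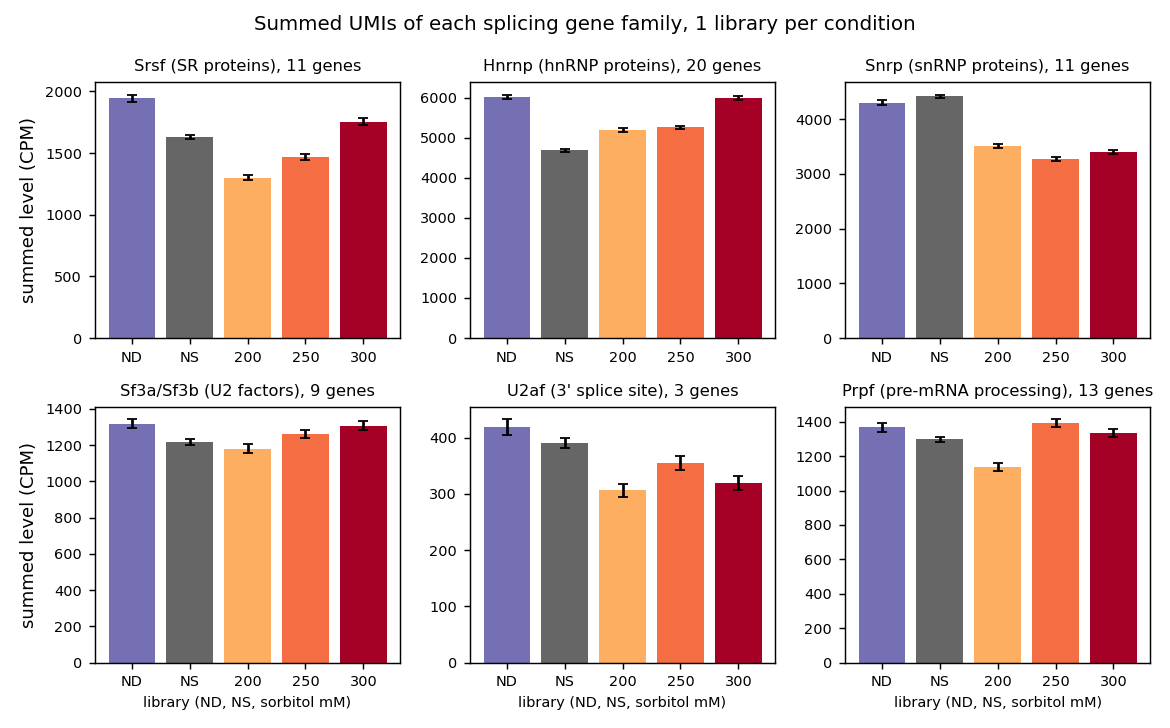
Summed level (CPM, y axis from 0) of the genes of each family in the 5 libraries (x axis: ND, NS and the sorbitol dose in mM). Bars are 1 library each and error bars are 95% Poisson intervals for counting error only. The Hnrnp bar is lowest in NS, at 4681 CPM (by CPM only; under median-of-ratios scaling the bars at 200 and 250 mM would be lower), and the Snrp bars of the sorbitol libraries, at 3278 to 3501 CPM, lie below ND and NS.

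Comparisons were read for the 66 members with a mean of at least 5 CPM over the 5 libraries. The gene left out, Srsf12, had 1.52 CPM in ND, 2.80 in NS, and 2.71, 2.56 and 3.38 at 200, 250 and 300 mM sorbitol. A member was counted as higher or lower when its CPM differed at least 1.5-fold (0.58 on the log2 scale), and the same count over all 10222 genes at that level is given beside it. The 4 ratios to NS share the NS library, so they are not independent of each other. A sum over barcodes cannot tell a change in the kinds of cells from a change within cells.

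Without LIF, hnRNP and SR protein transcripts took a larger share of the library and no member was lower by 1.5-fold. In ND against NS, 6 of 66 members were at least 1.5-fold higher, where the share of all genes was 9.09%, and 0 of 66 were lower, where it was 6.9%. The share of members counted as higher was that of all genes. The members' median log2 ratio was 0.22, and that of all genes 0.08. The 6 were Srsf1, Srsf6, Hnrnpl, Hnrnpd, Hnrnpk and Prpf40b.

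Srsf6, an SR protein that binds exonic enhancers, stood at 195 CPM in ND and 113 CPM in NS, a log2 ratio of 0.79 (interval 0.69 to 0.88). Srsf1, the founding member of the SR protein family and a splicing enhancer in many transcripts, stood at 155 CPM in ND and 94.2 CPM in NS, a log2 ratio of 0.72 (0.61 to 0.82). Hnrnpl, which binds CA repeats, had 145 CPM in ND and 86.9 CPM in NS (log2 ratio 0.74, 0.63 to 0.84). Of the 6, these 3 had a counting interval wholly past 1.5-fold. Hnrnpd, which binds AU-rich elements and promotes mRNA decay, had 259.9 CPM in ND and 171 CPM in NS (log2 ratio 0.61, 0.53 to 0.68), and was within 1.5-fold with mitochondrially encoded and ribosomal protein genes out of the total. Hnrnpk, a KH-domain protein that binds C-rich RNA, had 401 CPM in ND and 266 CPM in NS (log2 ratio 0.59, 0.53 to 0.66). It was within 1.5-fold under median-of-ratios scaling, at 0.57, and also with mitochondrially encoded and ribosomal protein genes out of the total. Prpf40b, homologous to a yeast protein of the U1 snRNP, had few UMIs, with 88 in ND (11.1 CPM) and 139 in NS (6.27 CPM), and its log2 ratio of 0.83 had the interval 0.43 to 1.22.

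Beyond these, 19 of 20 Hnrnp genes were above NS in ND, all but Hnrnph3 (log2 ratio -0.13), where 57.9% of all genes were, with a family median of 0.35 and a range of -0.13 to 0.74. The Srsf median was 0.21, the Sf3 median 0.16 and the Prpf median 0.22. The Snrp genes were centred near no difference, with a median of -0.03; Snrpf, a Sm ring gene, was the highest of them at 0.50, and Snrpa1, which encodes a protein specific to the U2 particle, the lowest at -0.34. The lowest ratio among the 66 was that of Prpf18, a factor of the second catalytic step, with 30.4 CPM in ND and 42.2 CPM in NS (-0.48, -0.69 to -0.27). Median-of-ratios scaling lowered all log2 ratios of this comparison by 0.02 and gave 5 higher and 0 lower, where the shares of all genes were 8.28% and 7.42%.

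Under sorbitol the hnRNP and snRNP families lay apart, as they did in ND, where their medians were 0.35 and -0.03. At 200, 250 and 300 mM, 12, 10 and 13 of 20 Hnrnp genes lay above the median of all genes. For the 11 Snrp genes these counts were 2, 0 and 0. In the 200 mM library against NS, 3 of 66 members were at least 1.5-fold higher, where the share of all genes was 25.4%, and 10 were lower, where it was 10.3%. At 250 mM, 6 were higher (25.6% of all genes) and 2 lower (7.88%). At 300 mM, 11 were higher (31.8% of all genes) and 4 lower (9.9%). In each case the share of members counted as higher was below that of all genes. Most genes at this level had a higher CPM in the sorbitol libraries, with a median log2 ratio over all genes of 0.19, 0.22 and 0.28 at the 3 doses, against 0.01, 0.09 and 0.15 for the members.

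Median-of-ratios scaling, which centres the typical gene, lowered every log2 ratio to NS by 0.22, 0.24 and 0.26 at 200, 250 and 300 mM. Under it, 3, 2 and 4 members were higher, where the shares of all genes were 15.9%, 14.6% and 19.1%, and 15, 16 and 15 were lower, where the shares were 18%, 15.3% and 18.2%. With mitochondrially encoded and ribosomal protein genes taken out of the total, 3, 3 and 8 were higher and 10, 12 and 6 lower. The shares of all genes were not computed under this total. The division into higher and lower at 250 and 300 mM therefore depended on the scaling. A scaling moves all genes of a library alike, so the order of the families among themselves is the same under each. With every library thinned to the total of the smallest, all calls but that of Srsf6 at 250 mM were made again, and Snrpa1 at 200 mM and Snrpe and Srsf4 at 250 mM were added, all 3 lower.

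**Figure D2:**
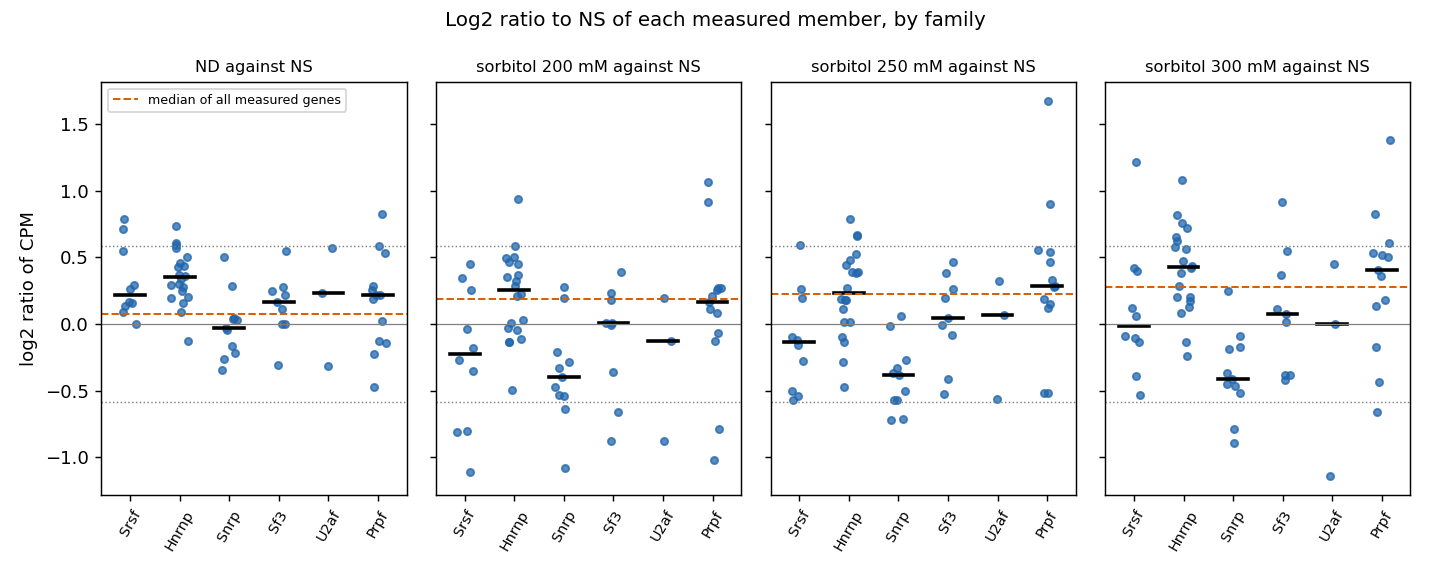
Log2 ratio of CPM to NS (y axis) of each measured member, by family (x axis), in ND and at 200, 250 and 300 mM sorbitol. Each point is a gene, black bars are family medians, the dashed line is the median of all 10222 genes and dotted lines mark 1.5-fold. The Snrp median is the lowest of the 6 in all 4 panels (-0.03 in ND, -0.40, -0.38 and -0.41 under sorbitol), and the Hnrnp median lies above 0 in all 4; median-of-ratios scaling would move the Hnrnp median at 250 mM to -0.01.

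Of the 20 Hnrnp genes, 14 were above NS at all 3 doses, a share of 70% where that of all genes was 54.1%, and 1, Hnrnpa1, was below at all 3. Under median-of-ratios scaling 8 were above at all 3 doses, where the share of all genes was 38.3%, and the family median at 250 mM was -0.01, against 0.23 by CPM. At 200 and 300 mM it was 0.26 and 0.42 by CPM and 0.04 and 0.16 under that scaling.

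By CPM, 1 of 20 Hnrnp genes (5%) was at least 1.5-fold above NS at every dose, where the share of all genes was 17.9%. Under median-of-ratios scaling 0 of 20 were, where that share was 10.2%. The gene above by CPM was Hnrnph1, which binds runs of G. It had 172 CPM in ND, 116 in NS, and 222, 184 and 246 at 200, 250 and 300 mM sorbitol, and the log2 ratios to NS were 0.93 (0.85 to 1.02), 0.67 (0.58 to 0.75) and 1.08 (0.996 to 1.17); under median-of-ratios scaling the value at 250 mM was 0.43. All 3 sorbitol libraries and ND lay above NS. A stretch of 171 bases of its 3' end matches a retained-intron transcript of Setd1b, so its reads may be shared with that gene.

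Hnrnpa2b1 and Hnrnpa1 encode close relatives that bind AG-rich RNA and silence exons, and they differed. Hnrnpa2b1 had 479 CPM in ND, 389 in NS, and 535, 613 and 609.7 at 200, 250 and 300 mM sorbitol, with log2 ratios to NS of 0.46, 0.66 and 0.65 across the doses. Hnrnpa1 had 566 CPM in ND, 412 in NS, and 375, 297 and 349 at 200, 250 and 300 mM sorbitol, with log2 ratios of -0.14, -0.48 and -0.24. ND was the highest library for Hnrnpa1 and the 250 mM library for Hnrnpa2b1. Within a library, where scaling plays no part, Hnrnpa2b1 made up 45.9% of the UMIs of the pair in ND, 48.5% in NS, and 58.8%, 67.4% and 63.6% at the 3 doses.

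Hnrnpul2, a relative of the scaffold protein Hnrnpu, had 92.3 CPM in ND, 82.9 in NS, and 124, 143 and 139.7 at 200, 250 and 300 mM sorbitol, and its log2 ratios to NS were 0.58, 0.78 and 0.75. Hnrnpl had 145 CPM in ND, 86.9 in NS, and 122, 125 and 153 at 200, 250 and 300 mM sorbitol. Hnrnpr, an RNA-recognition-motif protein of the same family, had 117 CPM in ND, 90.7 in NS, and 113, 126 and 149.5 at 200, 250 and 300 mM sorbitol. Both had a larger value at each higher dose and passed 1.5-fold at 300 mM, with log2 ratios of 0.82 and 0.72. Hnrnpd passed it at 300 mM as well, at 0.62 (0.54 to 0.70). Under median-of-ratios scaling none of Hnrnpul2, Hnrnpl, Hnrnpr, Hnrnpd and Hnrnpa2b1 passed 1.5-fold at 300 mM, with log2 ratios of 0.49, 0.56, 0.46, 0.36 and 0.39. At 250 mM neither Hnrnpul2 nor Hnrnpa2b1 passed it under that scaling. Hnrnpu, which binds chromatin and nascent RNA, had 520.1 CPM in ND, 405 in NS, and 467, 527 and 602 at 200, 250 and 300 mM sorbitol, and was within 1.5-fold of NS throughout. Hnrnpab had 982 CPM in ND, 725 in NS, and 709.7, 596 and 816 at 200, 250 and 300 mM sorbitol, and was highest in ND. For the 10 genes Hnrnpa0, Hnrnpa3, Hnrnpc, Hnrnpdl, Hnrnpf, Hnrnph2, Hnrnph3, Hnrnpll, Hnrnpm and Hnrnpul1, the log2 ratios to NS lay between -0.50 and 0.36 at 200 mM, between -0.14 and 0.39 at 250 mM and between -0.13 and 0.47 at 300 mM. None passed 1.5-fold. Hnrnpf and Hnrnpa3 have 10 and 33 copies of their 3' ends elsewhere in the annotation, so their counts are uncertain.

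The SR protein genes did not share a direction under sorbitol. Of the 10 measured Srsf genes, 5 (Srsf3, Srsf4, Srsf5, Srsf7 and Srsf11) were below NS at all 3 doses and 3 (Srsf1, Srsf6 and Srsf9) above, where the shares of all genes were 25.1% and 54.1%; median-of-ratios scaling gave 6 below and 2 above, where the shares were 39.9% and 38.3%. Srsf6 (ENSMUSG00000016921, chr2:162931528-162937121, plus strand, GRCm38) had 195 CPM in ND, 113 in NS, and 154, 169.9 and 263 at 200, 250 and 300 mM sorbitol. Its log2 ratio to NS was 0.45 at 200 mM, 0.59 (0.50 to 0.68) at 250 mM and 1.22 (1.13 to 1.30) at 300 mM, and under median-of-ratios scaling 0.35 at 250 mM, within 1.5-fold, and 0.96 at 300 mM. With the other total the call at 250 mM was also lost. NS was its lowest library and 300 mM its highest.

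Srsf5 (ENSMUSG00000021134, chr12:80945504-80950507, plus strand), an SR protein that shuttles between nucleus and cytoplasm, had 219 CPM in ND, 182 in NS, and 84.5, 123 and 126 at 200, 250 and 300 mM sorbitol. The log2 ratio to NS was -1.11 (-1.22 to -0.999) at 200 mM, -0.57 at 250 mM and -0.53 at 300 mM. Srsf7, a zinc-knuckle SR protein active in mRNA export, had 233 CPM in ND, 191 in NS, and 109, 131 and 146 at 200, 250 and 300 mM sorbitol, and was 1.76-fold lower than in NS at 200 mM (log2 ratio -0.81, -0.91 to -0.71). Srsf3, which also takes part in export and 3' end choice, had 412 CPM in ND, 388 in NS, and 222, 320.4 and 364 at 200, 250 and 300 mM sorbitol, with log2 ratios to NS of -0.80, -0.27 and -0.09. For all 3 genes the 200 mM library was the lowest of the 5 and ND the highest. The level was greater at each step from 200 to 250 to 300 mM in 7 of the 10 Srsf genes, where the share of all genes was 25.4%; under median-of-ratios scaling this held for 5 of 10, against 21.7%. Srsf2, a nuclear speckle protein, had 275 CPM in ND, 246 in NS, and 239, 227 and 329 at 200, 250 and 300 mM sorbitol; its 3' end lies within Mettl23 on the opposite strand, and without a stated use of strand its reads and those of Mettl23 cannot be told apart. The genes Srsf4, Srsf9, Srsf10 and Srsf11 had log2 ratios to NS of -0.35 to 0.35 at 200 mM, -0.50 to 0.20 at 250 mM and -0.13 to 0.12 at 300 mM.

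**Figure D3:**
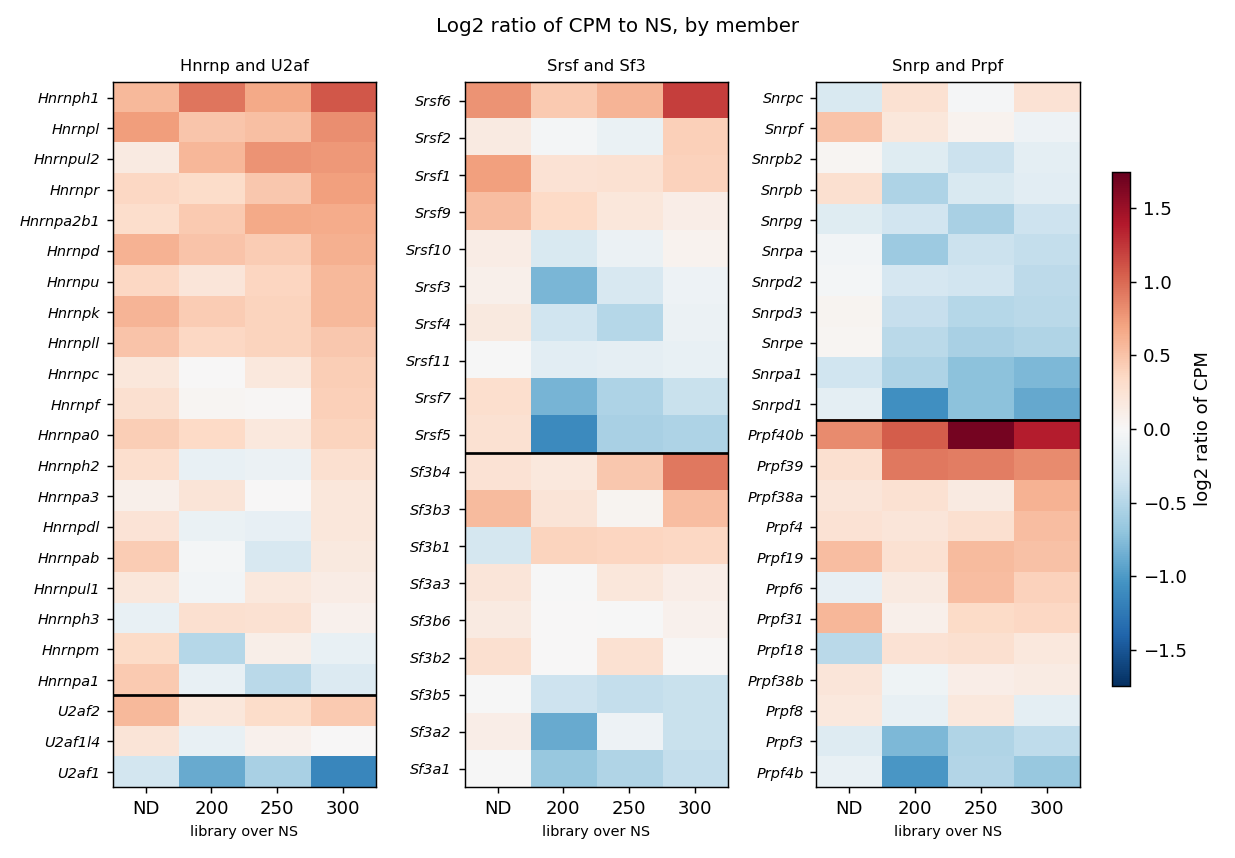
Log2 ratio of CPM to NS (colour) of the members shown (rows, by family) in ND and at 200, 250 and 300 mM sorbitol (columns), 1 library each. Hnrnp rows are mostly red and Snrp rows mostly blue under sorbitol; median-of-ratios scaling would shift the sorbitol columns by -0.22, -0.24 and -0.26, and would leave 8 rather than 14 Hnrnp genes above NS at all 3 doses.

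The Snrp genes, which encode the Sm ring and proteins of the U1 and U2 particles, lay below NS under sorbitol as a family. At all 3 doses 9 of 11 were below NS (81.8%), where the share of all genes was 25.1%, and under median-of-ratios scaling 10 of 11 were (90.9%), where it was 39.9%. The exceptions by CPM were Snrpc, a U1 protein, and Snrpf. The family medians were -0.40, -0.38 and -0.41 at the 3 doses. By CPM, Snrpa and Snrpd1 passed 1.5-fold at 200 mM, and Snrpa1 and Snrpd1 at 250 and 300 mM; under median-of-ratios scaling 5 of the 11 (Snrpa, Snrpa1, Snrpd1, Snrpd3 and Snrpe) were at least 1.5-fold below NS at all 3 doses, where the share of all genes was 10.3%.

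Snrpd1, a Sm ring gene, was by CPM the one member at least 1.5-fold below NS at every dose, where the share of all genes was 5.02%; under median-of-ratios scaling 11 of 66 members were. It had 298 CPM in ND, 334 in NS, and 158, 202 and 179 at 200, 250 and 300 mM sorbitol, with log2 ratios to NS of -1.08 (-1.16 to -0.995), -0.72 (-0.79 to -0.65) and -0.90 (-0.98 to -0.82). All 3 sorbitol libraries lay below ND and NS. The other genes of the ring differed less. Snrpg (ENSMUSG00000057278, chr6:86371304-86379328, plus strand) had 1080.2 CPM in ND, 1254 in NS, and 995, 843 and 971 at 200, 250 and 300 mM sorbitol, and log2 ratios of -0.33, -0.57 and -0.37. Snrpd2 had 682 CPM in ND, 696 in NS, and 569.8, 554 and 508 at 200, 250 and 300 mM sorbitol, and was lowest at 300 mM. Snrpe had 461 CPM in ND, 449 in NS, and 324, 302 and 313 at 200, 250 and 300 mM sorbitol. The 7 ring genes (Snrpb, Snrpd1, Snrpd2, Snrpd3, Snrpe, Snrpf and Snrpg) summed to 3627 CPM in ND, 3666 in NS, and 2837, 2678 and 2740 at 200, 250 and 300 mM sorbitol; 6 of the 7 were below NS at all 3 doses and, under median-of-ratios scaling, all 7. Snrpa1 had 153 CPM in ND, 194 in NS, and 134, 118 and 113 at 200, 250 and 300 mM sorbitol, and was lower at each higher dose. Snrpa, the U1 particle protein that binds a stem loop of the U1 RNA, had 146 CPM in ND, 151 in NS, and 97.2, 117 and 113 at 200, 250 and 300 mM sorbitol. The genes Snrpb, Snrpb2, Snrpc, Snrpd3 and Snrpf had log2 ratios to NS of -0.54 to 0.27 at 200 mM, -0.50 to 0.06 at 250 mM and -0.47 to 0.25 at 300 mM. End sequences of 95% identity or more were found for Snrpa in 4 other genes, for Snrpe in 2 and for Snrpd1, Snrpc and Snrpf in 1 each, so that reads of these genes may have been shared or left uncounted. For Snrpf the match is of 300 identical bases to Ccdc38, on the opposite strand. Ccdc38 had a mean of 2.61 CPM against 284 CPM for Snrpf.

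U2af1 and U2af2 encode the small and the large subunit of the factor that recognises the 3' splice site, and by CPM U2af1 was below and U2af2 above NS in every other library, although the ratio of U2af2 at 200 mM turns negative under median-of-ratios scaling. U2af1 (ENSMUSG00000061613, chr17:31647081-31658892, minus strand) had 183 CPM in ND, 228 in NS, and 124, 155 and 103 at 200, 250 and 300 mM sorbitol, with log2 ratios to NS of -0.32 in ND and -0.88, -0.56 and -1.14 (-1.25 to -1.04) at the 3 doses. U2af2 had 217 CPM in ND, 147 in NS, and 168, 184 and 201 at 200, 250 and 300 mM sorbitol, with log2 ratios of 0.57 in ND and 0.19, 0.32 and 0.45; under median-of-ratios scaling the value at 200 mM was -0.03. Of the UMIs of the pair, U2af1 held 45.7% (44.0 to 47.5%) in ND, 60.9% (59.8 to 61.9%) in NS, and 42.5%, 45.7% and 34.0% (32.2 to 35.9%) at 200, 250 and 300 mM. The last 300 bases of U2af1 have an identical copy in the processed pseudogene Gm10232 and copies of 98.3% and 98.6% identity in 2 further pseudogenes, none of which is a feature of the matrices. U2af1l4, a paralogue of the small subunit, had 18.2 CPM in ND, 15.5 in NS, and 14.2, 16.3 and 15.6 at 200, 250 and 300 mM sorbitol, and no interval of its ratios to NS left 0 out; it overlaps Psenen on the opposite strand.

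**Figure D4:**
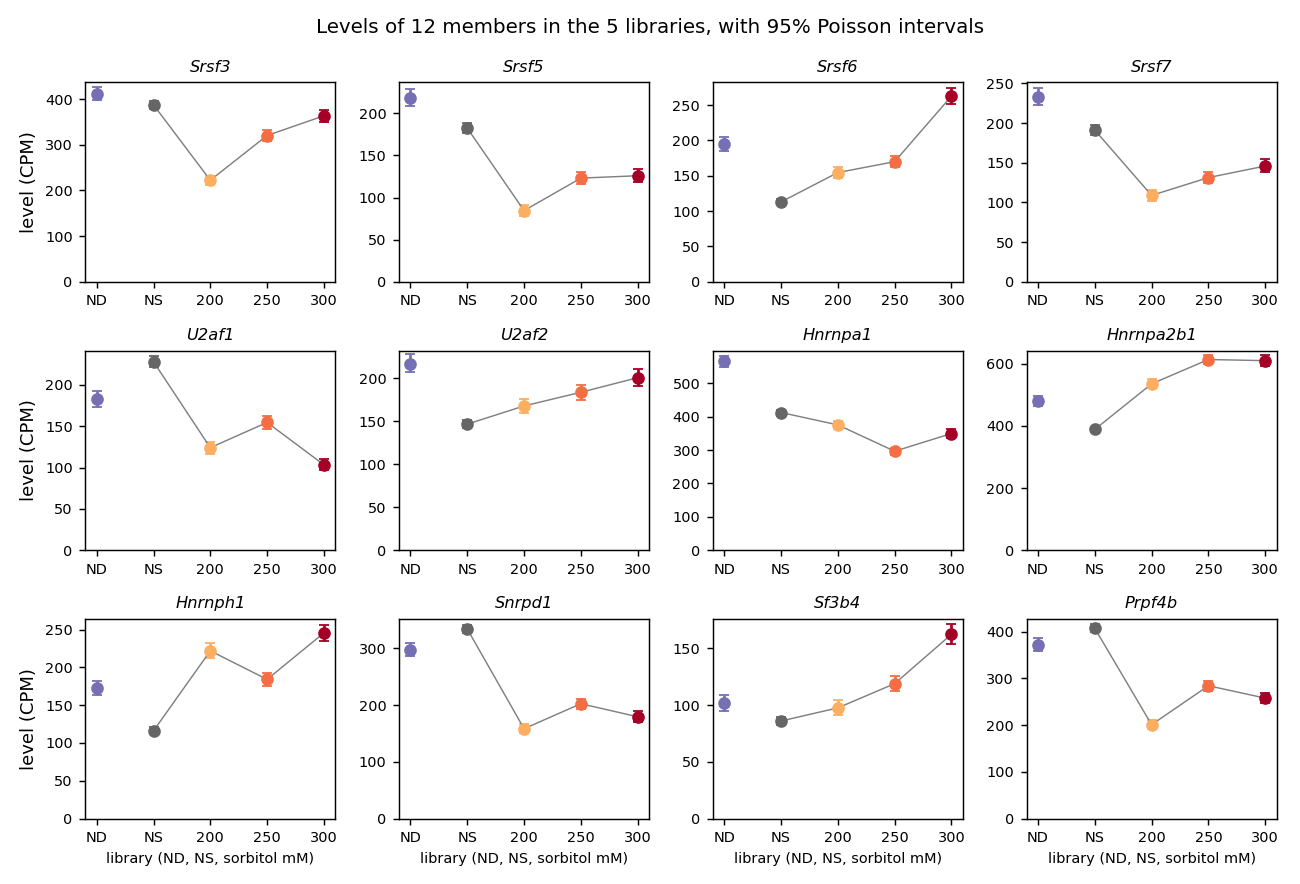
Level (CPM, y axis from 0) of 12 members in ND, NS and the 3 sorbitol libraries (x axis), with 95% Poisson intervals; the line joins NS and the sorbitol doses. U2af1 is highest in NS at 228 CPM and U2af2 lowest there at 147 CPM (by CPM; under median-of-ratios scaling 200 mM would be lower); Srsf3, Srsf5, Srsf7 and Prpf4b are lowest at 200 mM, whereas Srsf6, Hnrnph1 and Sf3b4 are highest at 300 mM.

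The Sf3 proteins form the U2 subcomplexes that hold the branch site. By CPM 4 of the 9 genes (Sf3b1, Sf3b2, Sf3b3 and Sf3b4) were above NS at all 3 doses and 3 (Sf3a1, Sf3a2 and Sf3b5) below, which are 44.4% and 33.3% where the shares of all genes were 54.1% and 25.1%; under median-of-ratios scaling 1 was above and 5 below, where the shares were 38.3% and 39.9%. The family medians were 0.01, 0.04 and 0.07 by CPM and below 0 under both other scalings, at -0.21, -0.19 and -0.19 under median-of-ratios scaling. Sf3b4 had 102 CPM in ND, 86.1 in NS, and 97.6, 119 and 162 at 200, 250 and 300 mM sorbitol, and was greater at each higher dose, with a log2 ratio of 0.92 (0.81 to 1.02) at 300 mM. Sf3a1 (ENSMUSG00000002129, chr11:4160350-4182541, plus strand) had 118 CPM in ND, 118 in NS, and 74.7, 82.1 and 88.5 at 200, 250 and 300 mM sorbitol, with log2 ratios of -0.66 (-0.79 to -0.54), -0.53 and -0.42. Its 3 sorbitol libraries lay below ND and NS. Sf3b1, the subunit that clamps the branch site, had 158 CPM in ND, 196 in NS, and 256, 255 and 253 at 200, 250 and 300 mM sorbitol; it was the one Sf3 gene whose interval lay below 0 in ND (log2 ratio -0.31, -0.40 to -0.22) and above NS at each dose. Sf3a2 had 66.5 CPM in ND, 61.5 in NS, and 33.4, 58.1 and 47.0 at 200, 250 and 300 mM sorbitol, but overlaps Plekhj1 on the opposite strand, which had a mean of 56.5 CPM against 53.3 CPM for Sf3a2. Sf3b5, a small subunit of the branch site complex, had 247 CPM in ND, 247 in NS, and 192, 186 and 189 at 200, 250 and 300 mM sorbitol. Its 3 sorbitol libraries lay below ND and NS. Sf3b2 had 274 CPM in ND, 226 in NS, and 227, 271 and 229 at 200, 250 and 300 mM sorbitol, and the remaining genes Sf3a3, Sf3b3 and Sf3b6 had log2 ratios to NS of -0.01 to 0.23 at 200 mM, -0.01 to 0.20 at 250 mM and 0.07 to 0.54 at 300 mM.

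Among the Prpf genes, 9 of 13 were above NS at all 3 doses by CPM and 2, Prpf3 and Prpf4b, below, which are 69.2% and 15.4% where the shares of all genes were 54.1% and 25.1%. Under median-of-ratios scaling 3 (23.1%) were above and 4 (30.8%) below, where the shares were 38.3% and 39.9%, so that the family's share above NS lay over that of all genes by CPM and under it by the other scaling. Prpf4b, a kinase that phosphorylates spliceosomal proteins, had 372 CPM in ND, 407 in NS, and 201, 284 and 258 at 200, 250 and 300 mM sorbitol, with log2 ratios of -1.02 (-1.09 to -0.95), -0.52 and -0.66 (-0.73 to -0.59). Prpf3, a protein of the U4 and U6 particle, had 32.4 CPM in ND, 37.9 in NS, and 21.9, 26.4 and 28.0 at 200, 250 and 300 mM sorbitol. Both were lowest at 200 mM. Prpf40b had 11.1 CPM in ND, 6.27 in NS, and 13.1, 19.97 and 16.3 at 200, 250 and 300 mM sorbitol, and its log2 ratios of 1.07, 1.67 (1.35 to 1.99) and 1.38 were the greatest of the 66 at each dose, on 121, 195 and 135 UMIs. Prpf39, also named after a yeast U1 protein, had 20.5 CPM in ND, 16.8 in NS, and 31.8, 31.3 and 29.8 at 200, 250 and 300 mM sorbitol; its 3' end of 282 bases is identical to part of Fkbp3 on the opposite strand, which had a mean of 442 CPM against 26.0 CPM for Prpf39, so that its reads cannot be told apart from those of Fkbp3. Prpf38a had 51.5 CPM in ND, 44.3 in NS, and 53.4, 49.2 and 67.4 at 200, 250 and 300 mM sorbitol, and passed 1.5-fold at 300 mM (0.61, 0.45 to 0.76) by CPM, but under neither of the other scalings. Prpf8, the scaffold of the catalytic core, had 232 CPM in ND, 204 in NS, and 186, 232 and 181 at 200, 250 and 300 mM sorbitol. A further 6 genes (Prpf4, Prpf6, Prpf18, Prpf19, Prpf31 and Prpf38b) were within 1.5-fold of NS in all 4 libraries, with log2 ratios of -0.48 to 0.58 in ND and -0.07 to 0.27, 0.12 to 0.55 and 0.14 to 0.53 at the 3 doses.

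The 300 mM library was also set directly against the 200 mM library, which does not involve NS. At least 1.5-fold higher at 300 mM were 3 of 66 members, where the share of all genes was 4.78%, and 0 were lower, where it was 3.28%; median-of-ratios scaling gave the same counts, with shares of 3.93% and 3.84%. The 3 were Srsf6 (0.77, 0.67 to 0.86), Sf3b4 (0.73, 0.61 to 0.86) and Srsf3 (0.71, 0.63 to 0.79). Srsf5 was just inside the threshold, 1.49-fold higher with a log2 ratio of 0.58 (0.44 to 0.71). The family medians of this ratio were 0.37 for Srsf, 0.28 for Prpf, 0.18 for Hnrnp, 0.12 for Sf3 and -0.04 for Snrp, beside 0.09 for all genes.

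Ratios of UMIs within 1 library do not depend on any scaling. For each UMI of the Snrp genes there were 1.40 of the Hnrnp genes in ND, 1.06 in NS, and 1.48, 1.60 and 1.76 at 200, 250 and 300 mM, so that NS was the lowest and the ratio was greater at each dose. As a share, the Hnrnp genes held 58.3% (58.0 to 58.7%) of the UMIs of both families in ND, 51.4% (51.2 to 51.6%) in NS and 63.8% (63.4 to 64.1%) at 300 mM. Srsf6 held 47.1% (45.4 to 48.9%) of the UMIs of Srsf6 and Srsf5 in ND, 38.2% (37.1 to 39.4%) in NS, and 64.6%, 58.0% and 67.6% (65.9 to 69.2%) at the 3 doses. No share of UMIs within a library had been planned. Of the 10 measured Srsf genes, Srsf6 had the greatest and Srsf5 the lowest ratio to NS at each dose. The higher share of Srsf6 under sorbitol therefore follows from the choice of this pair and is not a separate result. A share of UMIs compares the same genes between libraries and gives no order of levels between genes, since tags were not counted per length.

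**Figure D5:**
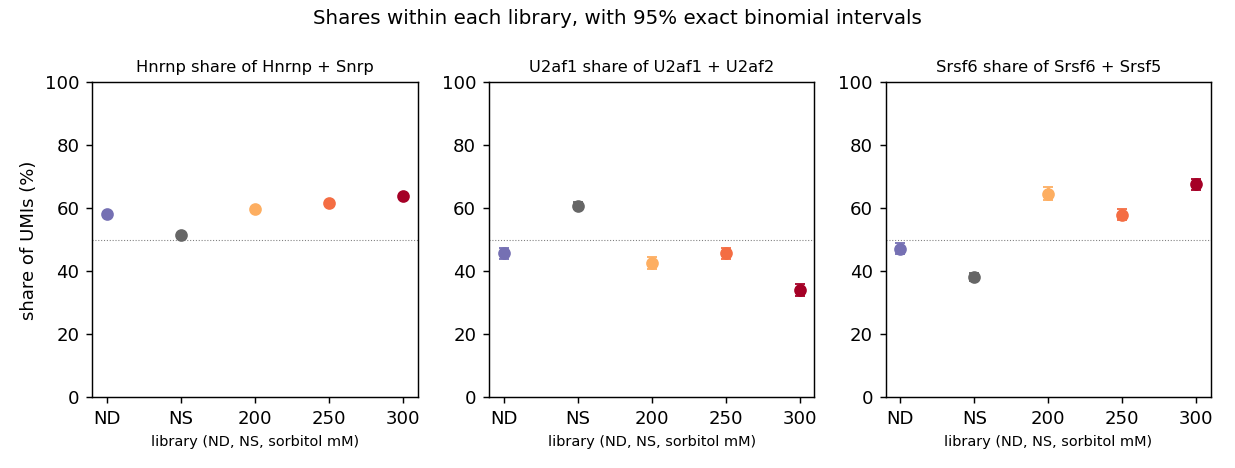
Share of UMIs (percent, y axis from 0 to 100) held by the Hnrnp genes among Hnrnp and Snrp genes, by U2af1 among U2af1 and U2af2, and by Srsf6 among Srsf6 and Srsf5, in ND, NS and the sorbitol libraries (x axis, mM). Points are 1 library each, with 95% exact binomial intervals for counting error. NS has the lowest Hnrnp share (51.4%), the highest U2af1 share (60.9%) and the lowest Srsf6 share (38.2%). Srsf6 and Srsf5 are the Srsf genes with the greatest and the lowest ratio to NS at each dose, so the shift of their share under sorbitol follows from the choice of the pair.

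Over single barcodes, thinned to 500 UMIs each, the members together had a mean of 7.72 UMIs in ND, 6.77 in NS, and 6.31, 6.48 and 7.04 at the 3 doses. The variance over barcodes was 1.05 to 1.08 times the binomial variance expected from 1 shared profile, and for single families it was 0.977 to 1.09 times. The greatest of these values were those of the Hnrnp genes at 250 mM (1.09) and in NS (1.08). For the Hnrnp genes, 10.6% of barcodes had 0 UMIs in NS, where the binomial gives 9.59%, and 7.95% at 250 mM, where it gives 7.16%. In ND the value of the Sf3 genes (1.0404) was above that of the Hnrnp genes (1.0385). The family counts were low, with a mean at 250 mM of 2.63 UMIs per barcode for the Hnrnp genes and 0.175 for the U2af genes. At such counts most of the variance is counting error, so a value near 1 cannot show whether barcodes differed in a family. Since the means differ between families, these values do not rank the families by spread either. Unthinned, the median barcode held 13 member UMIs in ND, 29 in NS, and 11, 12 and 12 at the 3 doses.

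Genes that work with the members were read from 10 lists. By CPM the shares of all genes at least 1.5-fold above NS were 9.09% in ND and 25.4%, 25.6% and 31.8% at the 3 doses, and the shares below 6.9% in ND and 10.3%, 7.88% and 9.9%; under median-of-ratios scaling they were 8.28%, 15.9%, 14.6% and 19.1% above and 7.42%, 18%, 15.3% and 18.2% below. The counts that follow are read against these, by CPM unless stated. Of the 12 LSm genes, relatives of the Sm genes that act with the U6 particle and in mRNA decay, 4, 5 and 1 were at least 1.5-fold lower than NS at 200, 250 and 300 mM and none higher, with medians of -0.36, -0.39 and -0.37; under median-of-ratios scaling 6 were lower at each dose. Lsm4 had 217 CPM in ND, 218 in NS, and 132, 128 and 124 at 200, 250 and 300 mM sorbitol. In ND none of the 12 passed and the median was 0.06. Of 13 measured snRNP assembly genes, 2, 1 and 2 were lower at the 3 doses and 0, 0 and 1 higher, with medians of -0.08, 0.04 and 0.25. Under median-of-ratios scaling 4, 3 and 3 were lower and none higher, with medians of -0.30, -0.20 and -0.01. Smn1, the core of the complex that loads Sm rings, had 126 CPM in ND, 136 in NS, and 77.2, 90.9 and 82.2 at 200, 250 and 300 mM sorbitol. Phax, the export adaptor of small nuclear RNA, had 60.6 CPM in ND, 69.1 in NS, and 35.6, 46.5 and 42.5 at 200, 250 and 300 mM sorbitol. Both lay below ND and NS at every dose. By CPM, Strap (log2 ratios 0.53, 0.47 and 0.60) and Gemin5 (0.45, 0.49 and 0.53) of the same list lay above NS at every dose. In ND, Prmt5, which methylates Sm proteins, was the one gene of this list past 1.5-fold, at 160.0 CPM in ND and 99.7 CPM in NS.

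Of 29 measured other RNA-binding regulators, 5 were higher in ND, and 11, 7 and 14 at 200, 250 and 300 mM; 0 were lower in ND and 1, 2 and 1 at the 3 doses. Under median-of-ratios scaling 4 were higher in ND and 4, 4 and 11 at the doses, and 0 in ND and 3 at each dose were lower. Pcbp2, a C-rich RNA binding protein, had 563 CPM in ND, 383 in NS, and 858, 603 and 1052 at 200, 250 and 300 mM sorbitol. Qk, a regulator of splicing in muscle and glia, had 139.7 CPM at 300 mM and 60.8 CPM in NS (log2 ratio 1.20). Ptbp3, a pyrimidine-tract binding protein, had 136 CPM at 300 mM and 58.5 CPM in NS (1.21). Mbnl3, of the muscleblind family, had 12.7 CPM at 300 mM and 2.84 CPM in NS (2.16, 1.69 to 2.63). In ND the greatest ratios in the list were those of Esrp1, an epithelial splicing regulator, with 32.4 CPM in ND and 12.5 CPM in NS (1.37, 1.12 to 1.62), and of Ptbp2, a neural relative of Ptbp3, with 24.7 CPM in ND and 11.9 CPM in NS (1.05).

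The kinases and carriers of SR proteins, 9 measured, showed 1 gene higher and 1 lower in ND, 1 and 1 at 200 mM, and 1 and 0 at 250 and 300 mM; under median-of-ratios scaling 1 was lower at 300 mM and the other counts were equal. Clk1, a kinase that phosphorylates SR proteins, was higher each time and had 78.2 CPM in ND, 50.6 in NS, and 106, 129 and 113 at 200, 250 and 300 mM sorbitol. Clk3, a related kinase, was lower in ND, with 14.0 CPM in ND and 29.3 CPM in NS (-1.06, -1.37 to -0.77). Among 16 SR-related coactivators, 0 passed in either direction in ND, 1 was higher at each dose and 3, 0 and 0 were lower; under median-of-ratios scaling 5, 2 and 1 were lower. The gene that was higher was Tra2a, which binds GAA repeats in exons, with 161 CPM in ND, 129 in NS, and 230.3, 255 and 329 at 200, 250 and 300 mM sorbitol. The exon junction complex list, of 10 genes, held 2, 3 and 3 higher and 3, 2 and 2 lower at the 3 doses, and 0 of either in ND; under median-of-ratios scaling 1, 0 and 1 were higher and 5, 3 and 3 lower. The list mixed genes of the complex with factors of nonsense-mediated decay (the Upf genes and Smg1). At 200 mM the higher genes were the decay factors Upf3b (log2 ratio 0.79) and Smg1 (0.89). The lower ones there were Eif4a3 (-0.60), Magoh (-0.71) and Rbm8a (-0.86) of the complex. Casc3 of the complex was higher at 250 and 300 mM (0.60 and 0.80). Rbm8a, a core subunit, had 322 CPM in ND, 316 in NS, and 173, 186 and 143 at 200, 250 and 300 mM sorbitol, whereas Smg1, a kinase of nonsense-mediated decay, had 80.0 CPM at 300 mM and 43.1 CPM in NS, and Casc3, another core subunit, had 135 CPM at 300 mM and 77.8 CPM in NS.

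In the list of the complex around Prpf19 and the catalytic core, of 12 genes, 0 passed in ND, and 0, 1 and 0 were higher and 2, 1 and 2 lower at the doses, and under median-of-ratios scaling none higher and 3 lower at each. Rbm22 had 79.8 CPM at 300 mM and 186 CPM in NS (-1.22, -1.34 to -1.10). Of 10 partners of U2 and the branch site, 0 passed in ND, and 0, 1 and 0 were higher and 1, 1 and 1 lower, and under median-of-ratios scaling none higher and 2, 1 and 2 lower. Phf5a, which sits beside Sf3b1, had 189 CPM in ND, 192 in NS, and 109, 128 and 112 at 200, 250 and 300 mM sorbitol. Of 7 particle proteins with Snrnp symbols, 0 passed in ND or at 200 and 250 mM and 1, Snrnp27, was lower at 300 mM; under median-of-ratios scaling 1, 1 and 2 were lower at the doses. Of 11 spliceosome helicases, 0 passed but for Ddx17, higher at 300 mM by CPM and not under median-of-ratios scaling, which gave 1 lower at 200 mM and no other call. The lists were not tested.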

How the data were processed

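Single-cell RNA libraries of REX-1 RFP mouse embryonic stem cells were read from the deposited matrices, which hold raw UMI counts per gene and barcode, and per the file headers Cell Ranger 6.0.1 made them. The submitters' processing notes also name Seurat 4.1.1, R 4.1.2 and build mm10. The labels' protocols describe a bulk extraction and a 3' library kit, whereas the matrices are of barcodes, and which protocol applied was not settled; neither strand use, annotation nor barcode selection is given in the sources used here.

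The genes and gene lists were chosen with earlier results of these data known. Kept barcodes had 500 genes or more and mitochondrial UMIs of 20% or less, and no doublet caller was run; leaving out the 5% of barcodes with the most UMIs was an alternative. UMIs were summed over kept barcodes and divided by their total to give CPM. Levels have exact Poisson intervals and ratios exact conditional binomial intervals (95%), which cover counting error only. Every condition was 1 library, so no test between conditions was made, and a gene with a mean of at least 5 CPM was counted as higher or lower at 1.5-fold. The ratio and interval steps were tested on simulated data. Members chosen to be named were those past 1.5-fold in any of the 5 comparisons, the 3 with the highest mean CPM of each family and every U2af gene, and, in each other list, up to 4 genes with the largest ratios. Of these members, the levels of Srsf1 and Hnrnpk are given for ND and NS only, and Srsf11 only within a range. Any further gene was named after its values were seen. The single values of 1 gene are not reported here. Alternatives were median-of-ratios scaling, a total without mitochondrially encoded and ribosomal protein genes, no filter on barcodes, thinning to the smallest library, and other minimum levels and folds. Gene positions and copies of 3' ends (at least 95% identity, BLAST 2.17.0) were read from a GENCODE annotation of GRCm38 and promoters from RefSeq, GRCm38.p6. Python 3.11.15 with numpy 2.4.6, scipy 1.17.1, pandas 2.3.3 and matplotlib 3.10.9 was used.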

Additional observations from a re-analysis of the deposited data

How the results depend on the processing

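No paired analysis was possible because each condition had 1 library. At a smaller fold threshold (0.32 on the log2 scale), 20, 14, 19 and 27 members were higher than NS in ND and at 200, 250 and 300 mM sorbitol, 2, 18, 17 and 15 were lower, and 21 were higher at 300 mM than at 200 mM. At a threshold of 2-fold, 0, 1, 1 and 3 were higher than NS in ND and at the 3 doses, 3, 0 and 1 were lower at the doses, and 0 were higher at 300 mM than at 200 mM. Under median-of-ratios scaling 2 were higher and 16 lower at 250 mM, and 4 higher and 15 lower at 300 mM; with a total that omits mitochondrially encoded and ribosomal protein genes, 3 were higher and 12 lower at 250 mM. Thinning to the smallest library gave 4 lower at 250 mM. The shares of all genes were not computed at these other thresholds, under that total or after thinning. Those counts alone are therefore not a result about the members. A minimum mean of 1 CPM added Srsf12, which was 1 gene lower in ND. The cause of these differences was not tested, beyond the shift each scaling makes by construction. Of 190 single log2 ratios of named members, 106 moved outside their counting interval under median-of-ratios scaling, 52 under the other total and 6 after thinning, against 0 without the barcode filter or without the 5% of barcodes with the most UMIs; no ratio past 1.5-fold changed sign. Depth limits the low genes, such as Prpf40b with 88 to 195 UMIs per library. Protein features that had been planned were not run.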
